A study of Mus musculus with 30 samples.

Results

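The comparison described here set CD4+ T cells from 4T1 tumours of mice given C269 against the same cells from mice given a control IgG1 (CTRL). It used the 5 CD4 CTRL and the 5 CD4 C269 libraries, 10 of the 30 libraries of the series, taken by their columns in the deposited table for this fraction. 4T1 is a mouse mammary carcinoma line, and the tumour cells here carried green fluorescent protein. C269 is an antibody against extracellular NAMPT, given at 2.5 mg/kg, and both agents were given 2 times a week for 1 month. All mice were labelled wild-type, and the labels give neither strain, sex nor age. The CD4+ cells were isolated on magnetic beads, and their RNA was sequenced in bulk. Whether each library of a group came from its own animal is not stated in the labels, and the spread behind the p-values is that between libraries, which may be technical. The other libraries were the CD8+ T cells and the sorted 4T1 cells of the same 2 treatments, 5 libraries in each group. They are used below only as a comparison.

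Inside cells, NAMPT is the enzyme that limits the salvage of nicotinamide into NAD, and its secreted form acts on other cells like a cytokine. CD4+ T cells in a tumour include helper cells and regulatory T cells, which carry the transcription factor Foxp3 and restrain other lymphocytes. Gata3 is the transcription factor of type 2 helper cells and is also used by regulatory T cells in tissues and by type 2 innate lymphoid cells. All of these can carry ST2, the receptor for the alarm cytokine IL-33, encoded by Il1rl1. ST2-bearing regulatory T cells are known in barrier tissues and tumours, where they can make amphiregulin (Areg), a growth factor in tissue repair. Cxcr6, the receptor of the chemokine CXCL16, is carried by T cells that have settled in tissues.

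The libraries held 3556439 to 4575387 counts each, and 12393 genes entered the test. Levels are given as CPM, counts scaled to the library's total over genes, and libraries are named by the number that heads their column, 11 to 15 for CTRL and 16 to 20 for C269. Cd4 itself was measured at 182, 192, 185, 71.3 and 172 CPM in CTRL and 181, 173, 163, 184 and 116 CPM in C269. Libraries 14 and 20 were the low ones, and the groups overlapped (log2 fold change -0.01, SE 0.24). Cd3e, which encodes a CD3 chain needed for signals from the T cell receptor, was measured at 179.8, 214, 160.2, 122 and 209 CPM in CTRL and 212, 237, 173, 249 and 208 CPM in C269, also with overlapping groups (log2 fold change 0.26, SE 0.17). For comparison, the CD8 CTRL libraries held 412 to 576 CPM of Cd8b1, a co-receptor chain of CD8+ cells, and the CD4 libraries held 10.002 to 31.9 CPM. The fraction held the markers of its label, and CD8+ transcripts were a minor part.

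Some libraries stood apart from their group. The summed level of the T cell core list, 14 genes that all T cells share, was 3644, 3675, 3400.3, 1565 and 3708 CPM in CTRL and 3699.6, 3434, 2742, 3346 and 2579 CPM in C269. Library 14 held far fewer T cell transcripts than any other library by this sum and the most transcripts of macrophages, with 5704 CPM summed over 12 genes against 1386 to 3224 CPM in the other CTRL libraries. Library 15 lay nearest to C269 libraries: among all 45 pairs, libraries 15 and 16 had the smallest chi-square per gene (5.57), libraries 12 and 13 the next (6.06) and libraries 15 and 17 the third (6.19). Libraries 19 and 20 held the most epithelial transcripts, as described further on. In bulk RNA, fewer cells of a type and less RNA per cell cannot be told apart.

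No gene passed the edgeR test after adjustment. By the quasi-likelihood test of edgeR with Benjamini-Hochberg adjustment, 0 of 12393 genes (0%) had an adjusted p under 0.05, and the smallest adjusted p was 0.494. At an unadjusted p under 0.05 there were 697 genes (5.62%), 434 higher (3.5%) and 263 lower (2.12%) in C269. In 47 genes (0.379%) all 5 C269 libraries lay above every CTRL library, and in 41 (0.331%) they all lay below. Other tools gave other counts: DESeq2 called 17 genes higher (0.11% of the 15472 it adjusted) and 0 lower, and the authors' deposited table has 12 genes higher (0.0876%) and 0 lower (0%) at the same threshold. Voom with quality weights, of limma, called 0. The same edgeR test without a filter on low counts called 83 genes, 72 higher and 11 lower, and 78 of these were also tested with the filter. In that fit the prior degrees of freedom, which set how far each gene's spread is drawn towards that of the other genes, were 119 against 7.09 with the filter. The cause of the difference in counts was not tested. Without library 15 the edgeR test called 10 genes, among them Cxcr6, Il1rl1, Il5, Ptn and Prlr. Library 15 lay nearest to C269 libraries, so leaving it out can widen the difference, and these calls are no independent support.

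All 12 genes of the authors' deposited table were among the 17 of DESeq2. They included Gata3, Il1rl1, Cxcr6, Tent5a and Ctla2a, which T cells express, and Cited1, Slc12a2, Fcgbp, Fxyd3, Igfbp5 and Pwwp3b. DESeq2 added Krt6a, Upk3a, Aqp5, Atp2b4 and Gipc2. Keratin 6a (Krt6a), uroplakin 3a (Upk3a), aquaporin 5 (Aqp5) and Fxyd3 are known as products of epithelia. All 17 were higher in C269.

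Gata3, Il1rl1 and Cxcr6 had the smallest p-values among T cell genes. They lie on chromosome 2 (9857078 to 9890034, reverse strand), chromosome 1 (40429570 to 40465415, forward strand) and chromosome 9 (123806475 to 123811760, forward strand) of GRCm38 in the GENCODE M21 annotation, and all are protein-coding. Their promoters are shown because of these p-values and because Gata3 encodes a factor that binds GATA motifs. The 250 bases before each start are given 5′ to 3′ on the gene's strand, from the RefSeq promoter table of GRCm38.p6, with AGATAA on either strand (TTATCT on the other) in capitals.
Il1rl1, distal start, chr1:40429320-40429569: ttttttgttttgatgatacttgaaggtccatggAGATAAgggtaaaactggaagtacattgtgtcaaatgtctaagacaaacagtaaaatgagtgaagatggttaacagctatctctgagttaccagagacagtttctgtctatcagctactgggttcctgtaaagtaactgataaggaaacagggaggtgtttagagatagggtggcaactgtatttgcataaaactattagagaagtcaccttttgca
Il1rl1, proximal start, chr1:40439379-40439628: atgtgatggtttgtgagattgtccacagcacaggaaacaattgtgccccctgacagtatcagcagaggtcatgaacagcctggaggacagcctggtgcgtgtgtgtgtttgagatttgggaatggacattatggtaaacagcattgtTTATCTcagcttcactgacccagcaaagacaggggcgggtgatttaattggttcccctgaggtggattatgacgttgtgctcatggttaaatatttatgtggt
Gata3, chr2:9878601-9878850: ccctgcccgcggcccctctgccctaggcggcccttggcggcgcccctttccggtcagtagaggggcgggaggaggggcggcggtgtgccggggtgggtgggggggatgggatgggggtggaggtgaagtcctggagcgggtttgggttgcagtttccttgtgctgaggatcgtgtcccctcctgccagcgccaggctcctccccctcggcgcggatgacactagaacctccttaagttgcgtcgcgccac
Cxcr6, chr9:123806227-123806476: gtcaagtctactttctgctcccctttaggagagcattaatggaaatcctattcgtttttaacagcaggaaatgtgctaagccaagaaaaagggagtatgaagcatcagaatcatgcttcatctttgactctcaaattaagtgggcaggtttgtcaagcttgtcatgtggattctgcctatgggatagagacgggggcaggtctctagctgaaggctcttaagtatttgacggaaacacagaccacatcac
The starts are those of RefSeq, and the Gata3 and proximal Il1rl1 windows lie within the GENCODE spans given above. Both Il1rl1 windows held 1 match, and those of Gata3 and Cxcr6 held none in these letters. Over windows from 250 bases before to 50 after the start, AGATAA was found in 11.2% of 32851 promoters in the table, in 6 of 16 promoters (37.5%) of the 14 matched genes of a list of 15 type 2 and ST2 genes, and in 5 of 15 promoters (33.3%) of the 10 matched of the 12 higher genes with the smallest p. In the type 2 list the matches were in Ccr3, Ccr8, Il13, Il1rl1 and Il9r. Among the genes with the smallest p they were in Atp2b4, Ctla2a, Fam25c and Il1rl1. Both Il1rl1 promoters count in each set, so the shares are not independent. TGANTCA, the motif of AP-1 factors, was in 7.81% of all promoters, 3 of these 16 and 3 of these 15. TTCNNNGAA, the motif of STAT factors, was in 8.3% of all, 1 of these 16 and 2 of these 15. The motifs were searched on both strands and do not contain one another. A match is a stretch of letters and not a measured binding site.

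Gata3 was measured at 162, 167, 168, 174 and 236 CPM in CTRL and 226, 286, 347, 420.4 and 312 CPM in C269. Of the C269 libraries 4 lay above every CTRL library, and library 16 lay just under library 15, the highest CTRL library (log2 fold change 0.79, SE 0.16; 1.73-fold). The adjusted p was 0.547 by edgeR and 0.0127 by DESeq2, and the authors' deposited table gives 0.0154. The log2 fold change was 0.67 (SE 0.18) when libraries 19 and 20 were left out.

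Il1rl1, the ST2 receptor, was measured at 76.6, 78.5, 99.996, 65.8 and 174 CPM in CTRL and 181, 132, 375, 293 and 306 CPM in C269. Library 18 was the highest, and library 17 lay under library 15, so the groups overlapped by 1 library on each side (log2 fold change 1.35, SE 0.30; 2.56-fold). Its edgeR adjusted p was 0.547, the DESeq2 value 0.0111 and the authors' deposited table gives 0.0128. It passed the edgeR test without library 15, its highest CTRL library (adjusted p = 0.0426, log2 fold change 1.65). Leaving out libraries 19 and 20 gave a log2 fold change of 1.22 (SE 0.35).

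Cxcr6 was measured at 34.6, 36.1, 34, 44.5 and 66.1 CPM in CTRL and 97.8, 90.8, 108, 136 and 62.4 CPM in C269. Only library 20 fell within the CTRL range (log2 fold change 1.18, SE 0.21; 2.27-fold). The edgeR adjusted p was 0.494, with 0.00238 by DESeq2 and 0.00253 in the authors' deposited table. Leaving out library 15, its highest CTRL library, brought it past the edgeR threshold (adjusted p = 0.015, log2 fold change 1.39). With libraries 19 and 20 left out the log2 fold change was 1.21 (SE 0.21).

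Of the 12 tested members of the list of 15 type 2 genes, which holds Gata3 and Il1rl1 themselves, 11 had higher values in C269, with a median log2 fold change of 0.88 against 0.00 for all tested genes, of which 50.8% were above 0. Of the 12, 7 were higher with an unadjusted p under 0.05, against 3.5% of all tested genes, and 0 passed the adjusted test. The median was 0.75 without libraries 19 and 20, and 0.32 in the CD8 libraries. Areg was measured at 74.1, 92.5, 143, 61.3 and 139.5 CPM in CTRL and 146, 171, 214, 181 and 282 CPM in C269. All 5 C269 libraries lay above every CTRL library, as in 0.379% of all tested genes. The closest were library 16 over library 13 (log2 fold change 0.94, SE 0.25). Il5, a cytokine that drives eosinophils, was measured at 0, 0.451, 1.17, 0.25 and 11.9 CPM in CTRL and 10.4, 9.4, 48.3, 11.2 and 12.5 CPM in C269. It was near 0 in CTRL libraries 11 to 14, and library 18 held the most (log2 fold change 2.74, SE 0.88). The value was 5.17 (SE 0.78) without library 15 and 1.96 (SE 0.91) without library 18. Il4, the cytokine that directs type 2 helper cells, was measured at 3.31, 6.99, 8.9, 2.5 and 23 CPM in CTRL and 18.1, 32.6, 23.6, 30.7 and 17.2 CPM in C269. Library 15 again lay within the C269 range (log2 fold change 1.42, SE 0.47), and the value without it was 2.12 (SE 0.39). Maf, a transcription factor of type 2 and regulatory cells, was 0.47 (SE 0.15) and Ccr3, a chemokine receptor of type 2 cells, 1.19 (SE 0.48). Hpgds, a prostaglandin D2 synthase, was the 1 lower member at -0.24 (SE 0.32). Ptgdr2, the prostaglandin D2 receptor CRTH2, had 0 counts in all 10 libraries, and Ccr8 and Il17rb did not pass the filter.

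**Figure D1:**
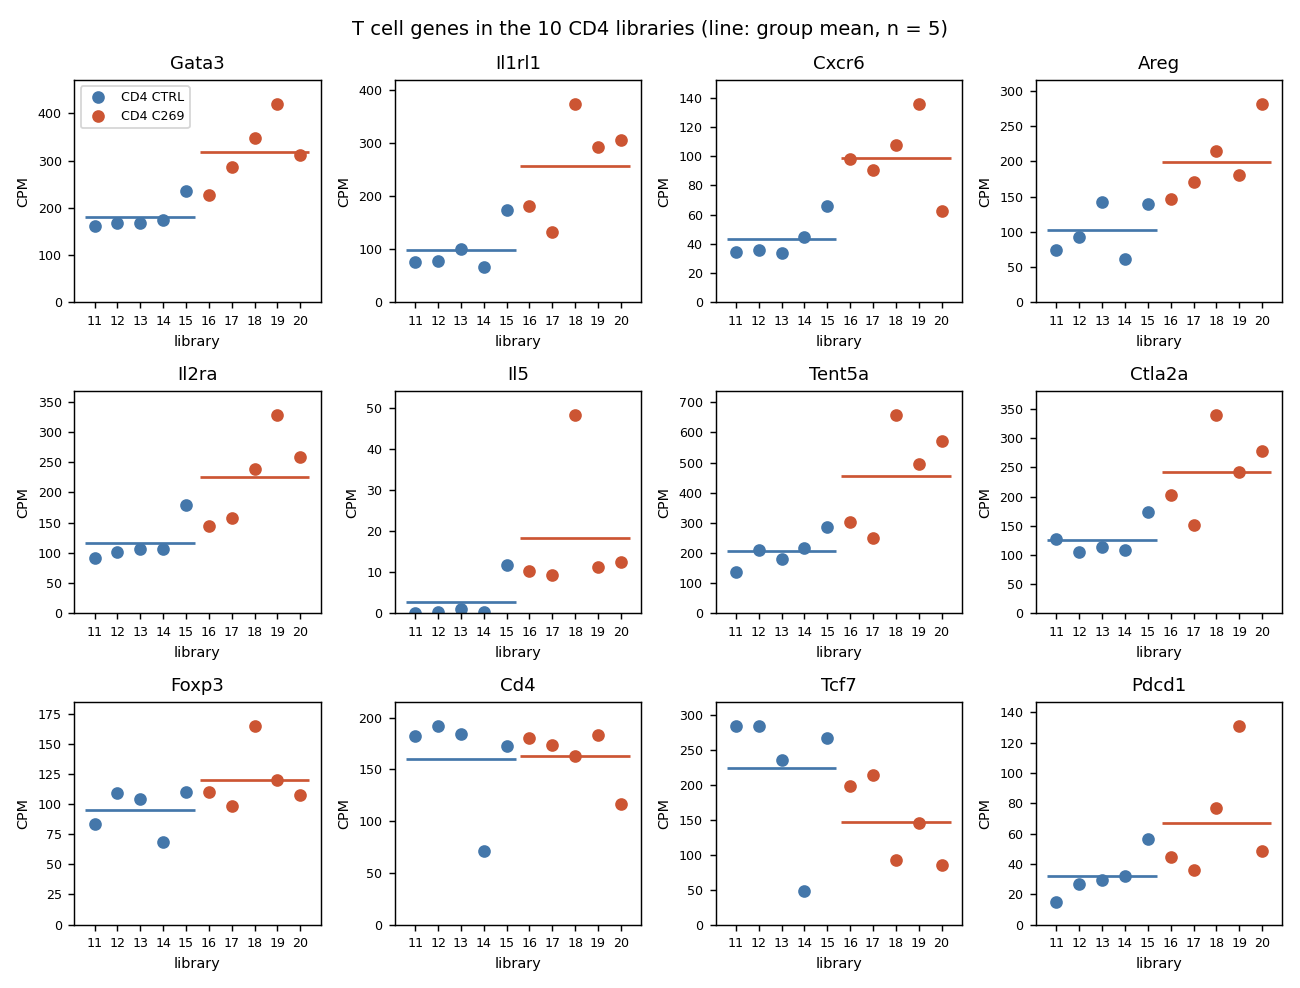
CPM of 12 T cell genes (y axes, from 0) in each CD4 library (x axis, CTRL 11 to 15 in blue, C269 16 to 20 in orange), with a line at each group mean of 5. Gata3, Il1rl1 and Cxcr6 were higher in most C269 libraries with library 15 nearest to them, while Cd4 and Foxp3 overlapped.

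Most tested genes listed for type 2 innate lymphoid cells and for mast cells and basophils also had higher values in C269, and none passed the adjusted test. Of 7 tested genes listed for type 2 innate lymphoid cells, 6 were higher, with a median of 0.94. The list sums ran from 539 to 963 CPM in CTRL and from 881 to 1514 CPM in C269. Areg, Il5 and Il13 stand in this list and the type 2 list. Rora, also listed for tissue regulatory T cells, made up much of the sum. Its mean was 454 of 698 CPM in CTRL and 727 of 1181 CPM in C269. Of 6 tested genes listed for mast cells and basophils, 5 were higher and 1 lower (median 0.40, 0.23 without libraries 19 and 20). The sums of the 9 listed genes ran from 60.8 to 132 CPM in CTRL and from 96.3 to 274 CPM in C269. Hdc was the 1 gene of this list with an unadjusted p under 0.05. Hdc, which makes histamine, was measured at 33.1, 39.3, 48.2, 40.8 and 85.3 CPM in CTRL and 101, 58.7, 193, 84.5 and 98.5 CPM in C269. CTRL library 15 lay above C269 libraries 17 and 19, and library 18 was highest (log2 fold change 1.11, SE 0.31). Fcer1a, Ms4a2 and Mcpt8, 3 of the 9 listed, did not exceed 5 CPM in any library, whereas every other listed gene reached 5 CPM in some library. Fcer1a was at 0 in 8 of 10. The part of these cells in the type 2 result was not tested.

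Most regulatory T cell genes had slightly higher values in C269, Foxp3 among them, and none passed the adjusted test. Foxp3 was measured at 83.3, 109, 104, 68.8 and 111 CPM in CTRL and 109.8, 98.1, 165, 119.9 and 108 CPM in C269, with overlapping groups and library 18 highest (log2 fold change 0.31, SE 0.18). Foxp3 was 0.16 (SE 0.17) without library 18 and 0.20 (SE 0.16) without library 14. Of 17 tested regulatory T cell genes, 16 had higher values, and the median was 0.27. Of the 17, 6 were higher with an unadjusted p under 0.05, against 3.5% of all tested genes. The list median was 0.31 in the CD8 libraries, where Foxp3 was at most 8.2 CPM. Il2ra, which encodes CD25 and lets regulatory T cells take up scarce interleukin-2, was measured at 91.2, 102, 107, 106 and 179.7 CPM in CTRL and 144, 158, 238, 328 and 258 CPM in C269. CTRL library 15 lay above C269 libraries 16 and 17, and the other 4 CTRL libraries lay below all of C269 (log2 fold change 0.92, SE 0.22). Ikzf2, which encodes the transcription factor Helios, was 0.51 (SE 0.18) and Lrrc32, which presents TGF-beta on regulatory T cells, 0.64 (SE 0.22). Tnfrsf9, Tnfrsf18 and Tnfrsf4, which encode the costimulatory receptors 4-1BB, GITR and OX40, were 0.72 (SE 0.28), 0.53 (SE 0.19) and 0.41 (SE 0.17), with Tnfrsf9 at 0.35 (SE 0.21) without library 18 and Ikzf2 at 0.31 (SE 0.18) without libraries 19 and 20. Ctla4 was 0.02 (SE 0.21), and Gpr83 was the 1 lower member at -0.39 (SE 0.40). Among 14 genes of tissue regulatory T cells 11 were higher (median 0.45), with Ptgir, the prostacyclin receptor, at 1.37 (SE 0.64), Klrg1, a lectin of differentiated lymphocytes, at 0.73 (SE 0.26) and the nuclear receptor Rora at 0.66 (SE 0.22), whereas Batf and Irf4, transcription factors of activated T cells, were -0.29 (SE 0.36) and -0.34 (SE 0.41).

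Set against Foxp3 in the same library, 3 of 5 type 2 and activation genes differed between the groups at an unadjusted exact p under 0.05. A ratio of levels within a library does not depend on how the library is scaled; the log2 differences were taken after 1 CPM was added to both levels. Il1rl1 over Foxp3 was 0.92, 0.718, 0.962, 0.956 and 1.58 in CTRL and 1.65, 1.35, 2.27, 2.44 and 2.85 in C269. Libraries 15 and 17 were again the overlapping ones (mean 1.03 ± 0.324 in CTRL and 2.11 ± 0.607 in C269; log2 difference 1.03, two-sided exact permutation p = 0.0159). Areg over Foxp3 differed by 0.67 on the log2 scale (exact permutation p = 0.0238) and Cxcr6 over Foxp3 by 0.85 (exact permutation p = 0.0317). Gata3 over Foxp3 differed by 0.46 (exact permutation p = 0.0556) and Il2ra over Foxp3 by 0.58 (exact permutation p = 0.0714). The 5 p-values are not adjusted, the genes were chosen with their levels known, and 5 against 5 libraries cannot give less than 0.00794. The Areg and Cxcr6 values missed 0.05 when single libraries were left out (exact permutation p up to 0.0635).

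Tent5a, a poly(A) polymerase, Ctla2a, an inhibitor of cathepsin L-type proteases, and Atp2b4, a calcium pump of the plasma membrane, also had higher values in C269. Tent5a was measured at 136, 209, 180.1, 218 and 288 CPM in CTRL and 303, 251, 659, 496 and 570.05 CPM in C269. Libraries 18, 19 and 20 stood above all others, and library 17 lay under library 15 (log2 fold change 1.13, SE 0.25). Ctla2a was measured at 128, 105, 114, 109 and 174 CPM in CTRL and 203, 151, 340.1, 242 and 278 CPM in C269. Its highest library was also 18, and only library 17 fell within the CTRL range (log2 fold change 0.93, SE 0.21). Atp2b4 was 0.87 (SE 0.20). DESeq2 called all 3, and the authors' deposited table has Tent5a and Ctla2a past the threshold but not Atp2b4 (adjusted p = 0.0589).

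Receptors for chemokines and cytokines were divided. Of 18 tested chemokine receptor genes 11 were higher and 7 lower (median 0.17). Of the 18, 5 were higher with an unadjusted p under 0.05, against 3.5% of all tested genes. Ccr2, which responds to CCL2, was measured at 123, 165, 158, 238 and 179 CPM in CTRL and 184, 200.1, 352, 608 and 245 CPM in C269. Libraries 18 and 19 were the high ones (log2 fold change 0.85, SE 0.27), and Ccr2 was 0.52 (SE 0.20) without library 19. Ccr9, a gut-homing receptor, was 0.89 (SE 0.34), and Ccr7, the receptor that leads T cells to lymph nodes, -0.52 (SE 0.49). Ccr7 was -0.80 (SE 0.34) without library 14, -0.84 (SE 0.51) without library 17 and -0.16 (SE 0.52) without libraries 19 and 20. Il7r, the interleukin-7 receptor that T cells need for survival, was measured at 342, 309, 249, 229.6 and 361 CPM in CTRL and 372, 356, 526, 825 and 430.2 CPM in C269. Library 19 held the most (log2 fold change 0.71, SE 0.21). Socs2, a feedback inhibitor of cytokine signalling, was 0.85 (SE 0.25). Among 10 tested tissue residency genes 5 were higher, Cxcr6 with Rgs2, Crem, Rgs1 and Itgae, and 5 were lower. Rgs2, a regulator of G protein signalling, was 0.51 (SE 0.16), and Cd69, which keeps T cells in tissues, -0.32 (SE 0.31).

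Genes of naive and central memory T cells were lower in 11 of 12 (median -0.33, against 49.2% of all genes below 0), with 0 of these 11 at an unadjusted p under 0.05. Il7r was the exception. The list median was also -0.33 in the CD8 libraries. Tcf7, which encodes the transcription factor TCF1 of naive and stem-like T cells, was measured at 284, 285, 235, 48.5 and 268 CPM in CTRL and 198, 214, 92.1, 145 and 85.7 CPM in C269. CTRL library 14 was the lowest of all, C269 libraries 18 and 20 came next, and the other 4 CTRL libraries lay above all of C269 (log2 fold change -0.64, SE 0.39; -0.91 without library 14). Dapl1, a gene of naive T cells, was measured at 130.4, 138, 117, 3 and 41.6 CPM in CTRL and 60.3, 56.4, 2.45, 2.24 and 14.9 CPM in C269. It was lowest in CTRL library 14 and in C269 libraries 18 and 19 (log2 fold change -1.68, SE 0.85). Lef1, the partner of TCF1, was -0.76 (SE 0.53), -1.22 (SE 0.53) without library 17 and -0.46 (SE 0.62) without libraries 19 and 20. None of the 12 genes passed the adjusted edgeR test.

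Cytotoxic granule genes were higher in 14 of 15 (median 0.43, against 50.8% of all tested genes above 0). Of the 15, 6 were higher with an unadjusted p under 0.05, against 3.5% of all tested genes. The list median was 0.31 in the CD8 libraries. Gzmb, which encodes granzyme B, was measured at 40.7, 43.3, 37.2, 66 and 32.3 CPM in CTRL and 43.1, 49.1, 89.2, 199 and 79 CPM in C269. Library 19 held the most, and libraries 16 and 17 lay within the CTRL range (log2 fold change 1.03, SE 0.33; with libraries 19 and 20 left out, 0.48 (SE 0.26)). Ccl5, a chemokine of effector T cells, was 0.65 (SE 0.24) and Klrd1, the receptor subunit CD94, 0.90 (SE 0.32), against 0.42 (SE 0.21) and 0.54 (SE 0.27) without library 19. Cd8a, the CD8 co-receptor, was measured at 6.88, 16.9, 13.3, 18 and 19.7 CPM in CTRL and 24.2, 18.1, 16.2, 50.6 and 18.9 CPM in C269, and library 19 was its highest too (log2 fold change 0.74, SE 0.33). Cd8a was 0.38 (SE 0.28) without it. Of 7 natural killer cell genes, Klra8, Klra4 and Khdc1a were at 0 in all 10 libraries and the sums did not exceed 14.5 CPM. The part of CD8+ cells in the granule genes was not tested.

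Of the helper programmes, 11 of 12 type 1 genes were higher (median 0.29), 2 with an unadjusted p under 0.05 (3.5% of all tested genes). These were Il18rap, a subunit of the interleukin-18 receptor, at 0.80 (SE 0.27) and Cxcr3, a chemokine receptor induced in type 1 cells, at 0.58 (SE 0.26). Ifng, which encodes interferon-gamma, was measured at 19.1, 3.84, 14.1, 12.3 and 20.4 CPM in CTRL and 21.3, 16, 12.5, 33.4 and 12.2 CPM in C269, with overlapping groups (log2 fold change 0.43, SE 0.38). Ifng was 0.18 (SE 0.32) without library 12 and 0.16 (SE 0.38) without library 19, and Cxcr3 was 0.37 (SE 0.28) without libraries 19 and 20. Of 18 genes of the interferon-gamma response 8 were higher and 10 lower (median -0.05). The receptor chain Ifngr1 and the kinase Jak2 were 0.52 (SE 0.16) and 0.57 (SE 0.16), and Irf1, a transcription factor that interferon-gamma induces, was -0.52 (SE 0.20). Among 8 tested type 17 genes none had an unadjusted p under 0.05, with Il17a, the cytokine that names these cells, at 1.20 (SE 0.81).

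The study's title names PD-1 and PD-L1. Pdcd1, which encodes PD-1, was measured at 14.8, 26.6, 29.7, 31.8 and 56.8 CPM in CTRL and 44.4, 35.8, 76.7, 131 and 48.4 CPM in C269. CTRL library 15 lay above C269 libraries 16, 17 and 20, and library 19 was the highest (log2 fold change 1.04, SE 0.35; with libraries 19 and 20 left out, 0.73 (SE 0.35); edgeR adjusted p = 0.76). Cd274, which encodes PD-L1, was measured at 137, 219, 191, 169 and 179.7 CPM in CTRL and 204, 159, 198, 120.4 and 173 CPM in C269. Library 19 lay below every CTRL library, and the other 4 C269 libraries lay within the CTRL range (log2 fold change -0.08, SE 0.18). Cd80, a ligand of CD28 and CTLA-4, was 1.24 (SE 0.36), from 3.16 to 7.96 CPM in CTRL and from 7.71 to 19.4 CPM in C269. Of 13 tested inhibitory receptor and ligand genes 9 were higher (median 0.20), 2 with an unadjusted p under 0.05 (3.5% of all tested genes).

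The gene of the antibody's target was measured in these cells as well. Nampt was measured at 101, 119, 117, 175 and 122 CPM in CTRL and 110.3, 132, 99.2, 120.4 and 127 CPM in C269. Library 14 was the highest, and the groups overlapped (log2 fold change -0.11, SE 0.14). Of 17 tested genes that make or consume NAD 8 were higher and 9 lower (median -0.09), and Sirt3, a mitochondrial deacetylase, was the 1 with an unadjusted p under 0.05 at 0.97 (SE 0.45). Tlr4, a proposed receptor for extracellular NAMPT, was 0.00 (SE 0.39), and 0 of 7 genes of its complex had an unadjusted p under 0.05.

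**Figure D2:**
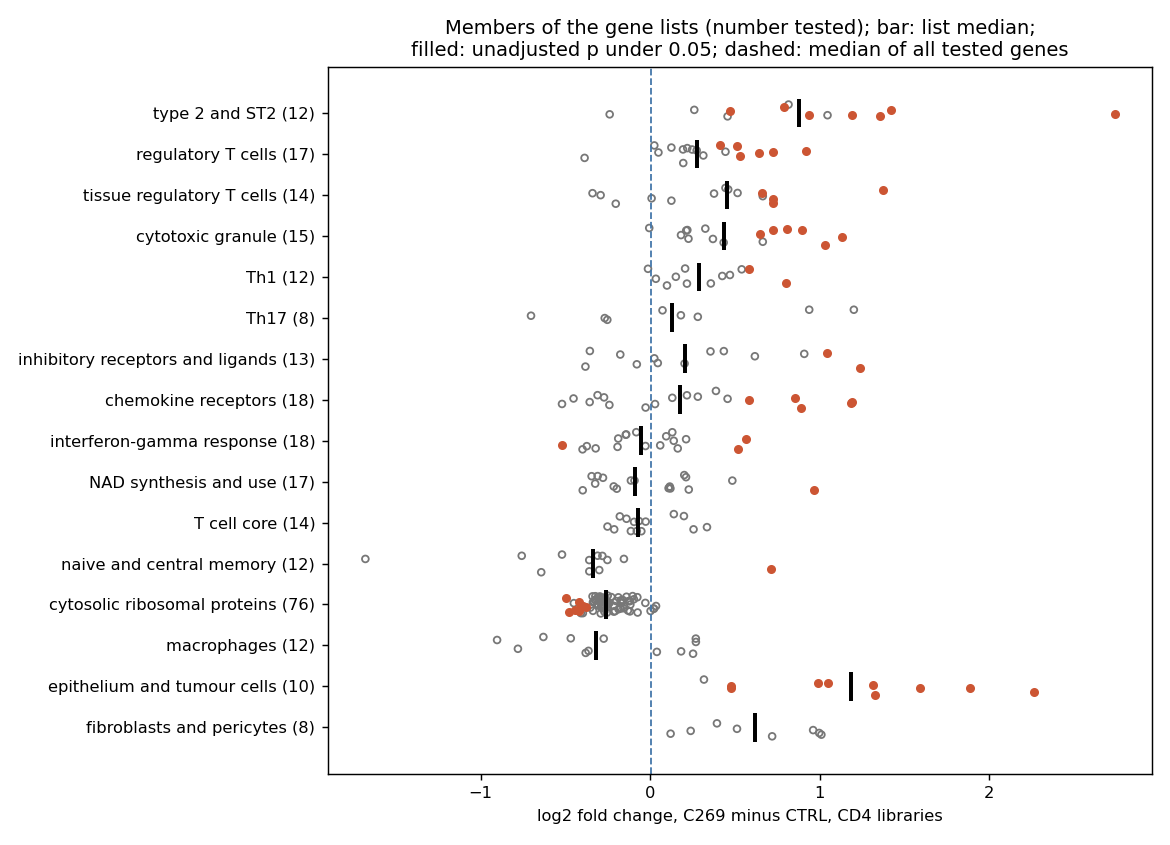
Log2 fold changes, C269 minus CTRL, of the tested members of 16 gene lists in the CD4 libraries (x axis), with the number tested beside each name; filled points have an unadjusted edgeR p under 0.05, bars are list medians and the dashed line is the median of all tested genes. The type 2 and epithelium lists lie farthest to the right, at medians of 0.88 and 1.18, and ribosomal protein genes lie to the left, at -0.26.

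Most ribosomal protein genes had lower values in C269. Of 76 tested cytosolic ribosomal protein genes 72 were lower, by a median of -0.26 that was -0.10 without libraries 19 and 20. Of the 76, 8 were lower with an unadjusted p under 0.05, against 2.12% of all tested genes. Rpl3, a protein of the large ribosomal subunit, was measured at 883, 929, 961, 592 and 756 CPM in CTRL and 776, 619.7, 601, 495 and 509 CPM in C269. CTRL library 14 and C269 libraries 17 to 20 were the low ones (log2 fold change -0.48, SE 0.18), and Rpl3 was -0.31 (SE 0.20) without libraries 19 and 20. Among the 12 lower genes with the smallest p, Dlg3, a scaffold protein of cell junctions, was measured at 26.5, 23.2, 26.7, 39.3 and 18.4 CPM in CTRL and 12.8, 11.7, 13.6, 16.2 and 16.3 CPM in C269. All 5 C269 libraries lay below every CTRL library, as in 0.331% of all tested genes (log2 fold change -0.94, SE 0.22). Tuba1b, an alpha-tubulin, was -0.65 (SE 0.18), and C269 library 16 lay above CTRL library 15. The others were Dvl2, a transducer of Wnt signals, at -0.90 (SE 0.23), Wdr77, a partner of the arginine methyltransferase PRMT5, at -0.86 (SE 0.23), Hmgb3, a chromatin protein, at -0.68 (SE 0.20) (-0.42 (SE 0.17) without libraries 19 and 20), Wrn, a DNA helicase, at -0.59 (SE 0.18) and Fbl, the methyltransferase fibrillarin of the nucleolus, at -0.68 (SE 0.20). Tnfaip8l2, Pcnx4, Rgmb, Zfp839 and Coro1c lay between -1.82 and -0.51. Of 31 cell cycle genes 26 were lower (median -0.15) and 0 had an unadjusted p under 0.05. None of these lower genes passed the adjusted edgeR test.

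Epithelial transcripts were higher in C269, most of all in libraries 19 and 20. Of the 10 tested of 12 listed epithelial and tumour cell genes, 10 were higher, with a median of 1.18 that was 0.45 without these 2 libraries. Of the 10, 9 had an unadjusted p under 0.05, against 3.5% of all tested genes higher at that p. The summed levels were 341, 228, 338, 359 and 334 CPM in CTRL and 338, 472, 481, 764 and 933 CPM in C269. Krt19, a keratin of simple epithelia, was measured at 29, 4.29, 17.1, 14.8 and 30.8 CPM in CTRL and 29.2, 59.8, 30.3, 173 and 181 CPM in C269. Libraries 16 and 18 lay within the CTRL range (log2 fold change 2.26, SE 0.55; with libraries 19 and 20 left out, 1.06 (SE 0.45)). Cldn4, a tight junction protein, was measured at 11.5, 8.35, 8.9, 3.25 and 20.2 CPM in CTRL and 18.3, 20.4, 17.1, 57.1 and 86.3 CPM in C269. Only libraries 19 and 20 stood clearly above library 15 (log2 fold change 1.89, SE 0.50), and Cldn4 was 0.83 (SE 0.42) without them. Cdh1, which encodes E-cadherin, and Epcam, an epithelial adhesion molecule, were 1.33 (SE 0.34) and 1.59 (SE 0.46), and Krt8, a keratin of simple epithelia found at 77.7 to 104 CPM in CTRL, was 0.48 (SE 0.18). Without libraries 19 and 20 these 3 genes were 0.61 (SE 0.26), 0.63 (SE 0.39) and 0.29 (SE 0.18).

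Several genes of hormone-sensing mammary cells were high in the same libraries, and 2 caseins were low. Of 8 tested genes of hormone-sensing and milk-making cells 5 were higher and 3 lower, and their median of 0.37 turned to -0.44 without libraries 19 and 20. Prlr, the prolactin receptor, was measured at 15, 8.8, 4.92, 12 and 63.6 CPM in CTRL and 37.8, 97.9, 33.4, 287 and 212 CPM in C269. Library 15 was again the high CTRL library, above libraries 16 and 18 (log2 fold change 2.64, SE 0.67). Prlr was 3.67 (SE 0.61) without library 15 and 1.44 (SE 0.63) without libraries 19 and 20. Cited1, a co-regulator of hormone-sensing mammary cells, was measured at 7.13, 2.26, 0.468, 3.5 and 6.31 CPM in CTRL and 14.9, 18.1, 14, 58.1 and 41.7 CPM in C269. All 5 C269 libraries lay above every CTRL library, as in 0.379% of all tested genes (log2 fold change 2.86, SE 0.54). Cited1 was 2.01 (SE 0.54) with libraries 19 and 20 left out. DESeq2 and the authors' deposited table give their smallest adjusted p for Cited1 (0.000169 and 0.000454). Ptn, the growth factor pleiotrophin, was measured at 6.62, 3.61, 4.92, 5.75 and 44.7 CPM in CTRL and 41.2, 78.4, 50.5, 293 and 93.3 CPM in C269. Library 15 alone among CTRL reached the C269 range (log2 fold change 3.04, SE 0.67). Ptn was 4.35 (SE 0.55) without library 15 and 2.13 (SE 0.64) without libraries 19 and 20. Slc12a2, the sodium, potassium and chloride cotransporter NKCC1, was measured at 33.1, 24.6, 44, 42 and 45.2 CPM in CTRL and 54.8, 104, 46, 142 and 103 CPM in C269. Its groups did not overlap, as in 0.379% of all tested genes, with library 18 just above library 15 (log2 fold change 1.22, SE 0.26). Slc12a2 was 0.86 (SE 0.26) with libraries 19 and 20 left out. Pgr, the progesterone receptor, was 2.38 (SE 0.67) with libraries 19 and 20 and 1.31 (SE 0.72) without. Fam25c had 0 counts in CTRL libraries 11 to 14, 5.05 CPM in library 15 and 12 to 82.5 CPM in C269.

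Csn2, the milk protein beta-casein, was measured at 13, 6.54, 38.2, 30.8 and 21.7 CPM in CTRL and 14.4, 4.36, 0, 1.5 and 0.291 CPM in C269. All C269 libraries but 16 lay below every CTRL library (log2 fold change -2.42, SE 0.79), and Csn2 was -3.81 (SE 0.75) without library 16. Csn1s1, alpha-S1-casein, was measured at 41, 14.7, 44.3, 35.8 and 33.1 CPM in CTRL and 25, 0.229, 1.56, 14 and 4.08 CPM in C269. Libraries 16 and 12 overlapped between the groups (log2 fold change -1.94, SE 0.67). Csn3, kappa-casein, went the other way at 0.55 (SE 0.46).

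With the summed epithelium list as a covariate, Cxcr6 was 1.26 (SE 0.30), Il1rl1 1.00 (SE 0.40) and Gata3 0.54 (SE 0.22), and 0 genes passed the adjusted test. Il2ra was 0.41 (SE 0.28) in that fit, against 0.92 (SE 0.22) without the covariate. Areg was 0.61 (SE 0.34), Tent5a 0.82 (SE 0.35), Pdcd1 0.58 (SE 0.49) and Atp2b4 0.37 (SE 0.24) there. Without libraries 19 and 20 Il2ra was 0.63 (SE 0.23), Areg 0.79 (SE 0.27), Tent5a 0.99 (SE 0.29) and Atp2b4 0.63 (SE 0.21). The list sums ran from 228 to 359 CPM in CTRL and from 338 to 933 CPM in C269. The fit therefore cannot tell epithelial content from C269. Epithelial cells can express Gata3 as well as T cells, and how much of its level came from each was not tested.

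**Figure D3:**
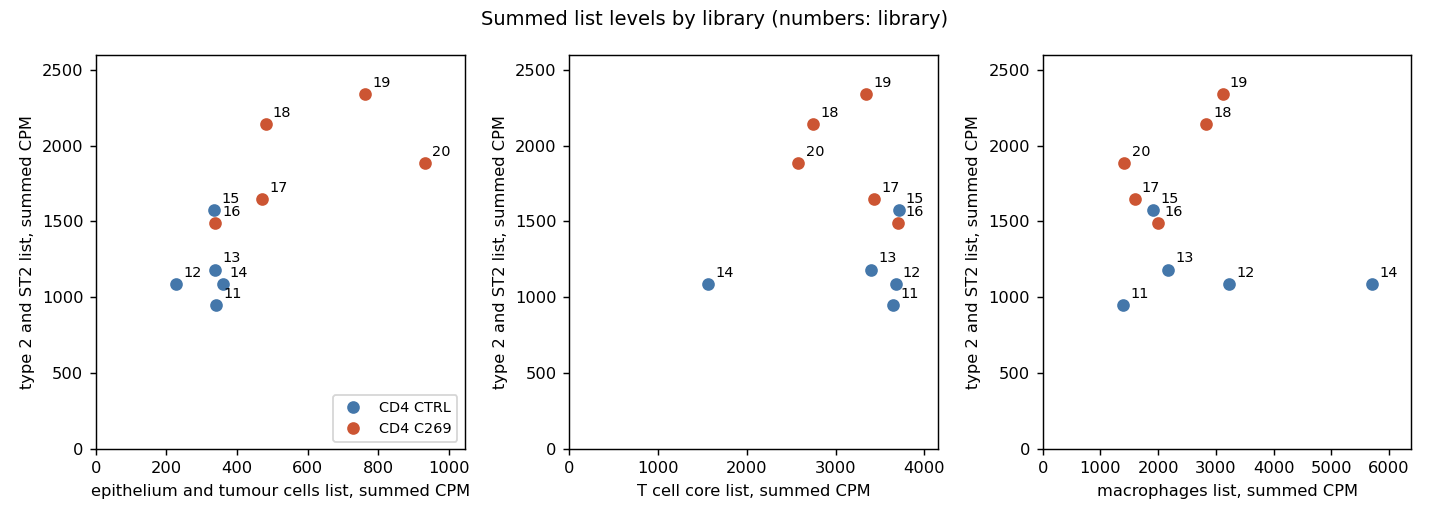
Summed CPM of the type 2 and ST2 list (y axis) against summed CPM of the epithelium, T cell core and macrophage lists (x axes), 1 point per CD4 library with its number, CTRL in blue and C269 in orange. Libraries 19 and 20 lie apart in epithelial transcripts at 764 and 933 CPM, library 14 lies apart in T cell and macrophage transcripts, and library 15 lies among the C269 libraries for the type 2 sum.

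**Figure D4:**
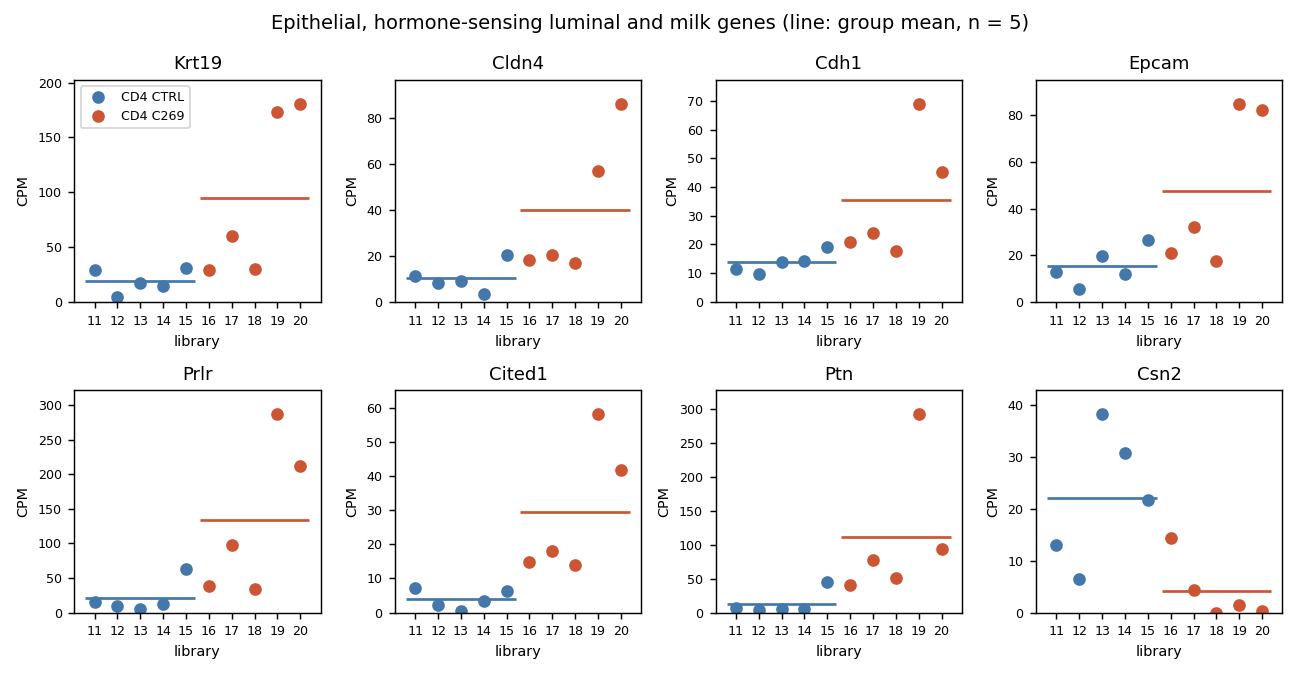
CPM of 8 epithelial, hormone-sensing and milk genes (y axes, from 0) in each CD4 library (x axis, CTRL in blue, C269 in orange), with a line at each group mean of 5. Libraries 19 and 20 are highest in the first 7 genes, and Csn2 is at or near 0 in libraries 18 to 20.

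Other cell types differed less evenly. Macrophage genes were lower in 7 of 12 (median -0.32), and C1qa, a complement component of macrophages, was -0.90 (SE 0.43) with library 14 and -0.29 without it. The 8 fibroblast and pericyte genes were all higher (median 0.62, -0.09 without libraries 19 and 20), 0 with an unadjusted p under 0.05, and their sums were highest in C269 library 20 at 9770 CPM and CTRL library 11 at 6097 CPM. Ighm, the heavy chain of IgM, was measured at 206, 149, 143, 64.3 and 302 CPM in CTRL and 324, 275, 248, 500.5 and 409 CPM in C269, highest in library 19 and overlapping through library 15 (log2 fold change 0.99, SE 0.31). Other heavy chains went the other way. Ighg2b, an IgG heavy chain, was measured at 230.2, 30.2, 41.5, 10.8 and 35.3 CPM in CTRL and 27.1, 24.5, 10.5, 11.7 and 16 CPM in C269. Ighg2c, another, was measured at 196, 20.1, 22.2, 1 and 13.4 CPM in CTRL and 18.6, 8.25, 4.23, 7.73 and 3.5 CPM in C269. CTRL library 11 was far the highest for both, and the other libraries overlapped between the groups (log2 fold changes -1.98, SE 0.63, and -2.61, SE 0.89). Of 10 tested B cell genes 7 were higher and 3 lower (median 0.39), and 1 was higher with an unadjusted p under 0.05 (3.5% of all tested genes). The sums of the 11 listed B cell genes ran from 80 to 434 CPM in CTRL and from 263 to 619 CPM in C269. Cd79a, a B cell receptor subunit, was the 1 listed B cell gene that did not reach 5 CPM in any library.

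The C269 effect in CD4 cells was set against that in CD8 cells under the same treatments to see whether it differed between the fractions. No gene of 13264 (0%) passed the edgeR test of the difference, with a smallest adjusted p of 0.593, and 561 (4.23%) had an unadjusted p under 0.05. Il1rl1 was at 1.5 to 6.44 CPM in CD8 CTRL and 2.47 to 9.32 CPM in CD8 C269, far under its level in CD4 cells, and its difference of effects was 0.92 (SE 0.57) (unadjusted p = 0.118). Gata3 was 0.32 (SE 0.25) in CD8 cells and Cxcr6 0.55 (SE 0.34), against 0.79 and 1.18 in CD4 cells. Their differences of effects were 0.49 (SE 0.30) and 0.64 (SE 0.43). The intervals of both differences include 0 at 2 SE.

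For some T cell genes the unadjusted edgeR p of the difference was small, though the adjusted p was 0.986 for each. Il7r was -0.27 (SE 0.17) in CD8 cells, and the effects differed by 1.00 (SE 0.28) with an unadjusted edgeR p of 0.00149. Tent5a was 0.09 (SE 0.22) there and differed by 1.06 (SE 0.35) (unadjusted edgeR p of 0.00619). Il18rap was -0.17 (SE 0.21) and differed by 0.99 (SE 0.35) (unadjusted edgeR p of 0.00929). Others had the larger value in CD8 cells. Tox2, a transcription factor of follicular helper cells, was 0.37 (SE 0.41) in CD4 and 3.41 (SE 0.88) in CD8 cells and differed by -2.99 (SE 0.85) (unadjusted edgeR p of 0.00179). Cd200, a surface protein that restrains myeloid cells, differed by -1.11 (SE 0.46) (unadjusted edgeR p of 0.0246). The 6 genes with the smallest p for the difference were Fam149a, Slc38a10, Nr5a2, Hap1, Rrp15 and Foxc2, of which Slc38a10, an amino acid transporter, differed by 0.94 (SE 0.23) and Rrp15, a ribosome assembly protein, by -1.29 (SE 0.33). Prlr, Ptn and Krt19 also had higher values in C269 in CD8 cells and in the sorted 4T1 fraction. Prlr was 3.14 (SE 0.68) and 3.14 (SE 0.86) there, Ptn 5.33 (SE 1.11) and 3.50 (SE 1.01), and Krt19 3.66 (SE 1.16) and 5.08 (SE 1.00). In the 4T1 fraction they were 3.77, 4.19 and 2.92 when its C269 libraries 9 and 10 were left out. By edgeR neither fraction had an adjusted p under 0.05 for these 3 genes. The CD8 libraries were uneven. Ptn ran from 3.98 to 315 CPM in CD8 C269, against 0 to 3.93 CPM in CD8 CTRL. The hormone-sensing and milk list summed to 473 CPM in CD8 C269 library 27 and 147 CPM in library 29. It was 18.6, 50.5 and 58.9 CPM in libraries 26, 28 and 30, against 13.3 to 51.2 CPM in CD8 CTRL.

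**Figure D5:**
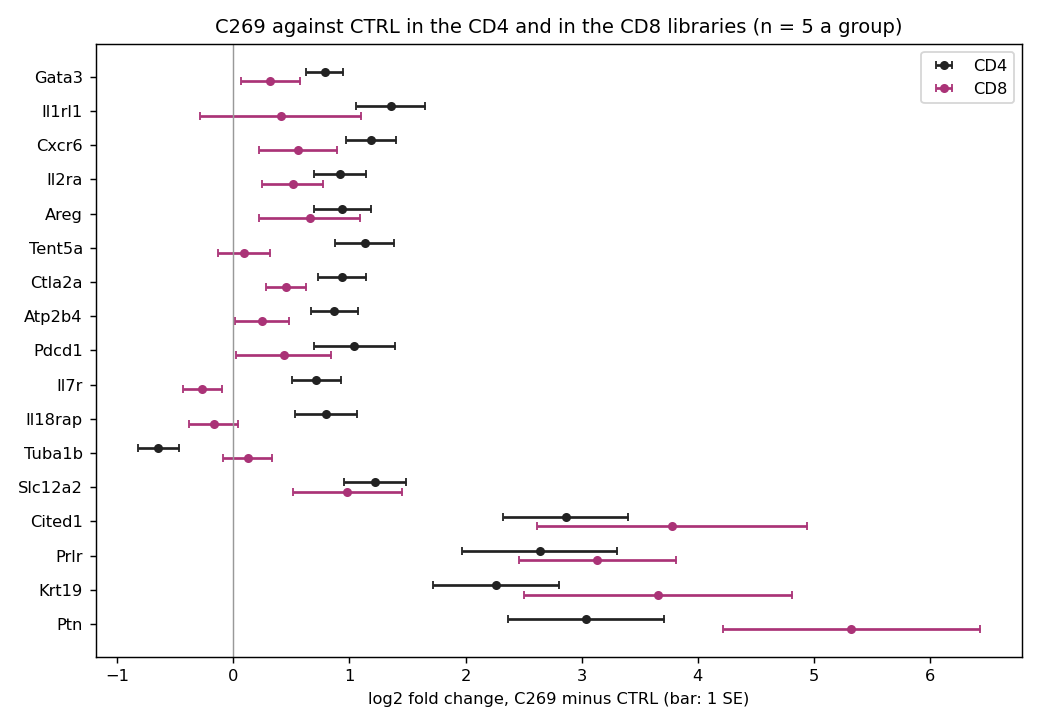
Log2 fold changes, C269 minus CTRL, with 1 SE, of 17 named genes in the CD4 libraries (black) and in the CD8 libraries (purple), 5 libraries in each group. The T cell genes from Gata3 to Il18rap lie farther to the right in CD4 cells, and Cited1, Prlr, Krt19 and Ptn lie to the right of 0 in both fractions. Most of these genes were picked by their p in CD4 cells, which favours larger values there. No gene passed the adjusted test of the difference.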

How the data were processed

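The members, gene lists and named genes were chosen with earlier results of these data known. Counts were deposited by the authors without normalization; per the submitters' processing notes, FastQC, featureCounts and DESeq2 were used with mm9 named as the build, with no version; which aligner was used is not stated there. Of 55141 gene identifiers found in GENCODE M21, 99.6% had the same start, so positions are those of GRCm38. The authors' deposited table also holds baseMean, a signal of counts divided by size factors, a log2 fold change, its Wald score and a p-value with its adjusted value; only the last was used, with the direction turned to C269 over CTRL. The library columns carry only numbers; each group's condition column, whose number the sample titles share, equals the sum of 5 of them.

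The 7 ribosomal RNA features (0.772% to 4.39% of counts in the CD4 libraries) were left out. Counts of 55401 genes were filtered with filterByExpr, scaled by TMM and tested with the quasi-likelihood test of edgeR 4.0.16 (R 4.3.3) with Benjamini-Hochberg adjustment at 0.05; the SE is the fold change over the square root of F. The fits were tested on simulated counts drawn independently for each library, with no outlying libraries among them. How the fits behave with outlying libraries was not tested. DESeq2 1.42.0 and limma 3.58.1 were run as alternatives. The CD4 and CD8 effects were compared by an interaction contrast of 4 groups. Log2 ratios used a pseudocount of 1 CPM and a two-sided exact permutation test over 252 assignments. Genes were named by rule: markers, the 12 with the smallest p per direction at 5 CPM or more, 3 per list by p and 6 for the contrast with CD8. Csn2, Csn1s1, Csn3, Il4, Maf, Ccr3, Hpgds, Epcam, Krt8, Lef1, Ccr7, Ctla4, Gpr83, Batf, Irf4, Cd69, Rgs1, Itgae, Ptgir, Tlr4, Ighg2b, Ighg2c and the genes given as absent or untested were named after their values were seen. Some genes are not reported here.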

Additional observations from a re-analysis of the deposited data

Results flagged for a closer look

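In groups of 5 libraries, the highest or lowest library was set against the others by Dixon's criterion (gap over range above 0.71). Chance exceeds it in about 1 of 20 groups. Gap and range were taken on log2 levels after 1 CPM was added, and the levels below are in CPM. Of 196 groups of values, for 82 genes and 16 list sums, 21 held such a library. They gather on few libraries.

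CTRL library 14 was low for Cd4 (71.3 CPM against 172 to 192), Tcf7 (48.5 against 235 to 285), Lef1 (24.5 against 183 to 326) and Ccr7 (81.8 against 563 to 707), for the T cell core sum (1560 CPM) and for the naive and central memory sum (2980 CPM). CTRL library 15 was high for Gata3 (236 CPM against 162 to 174), Il2ra (180 against 91.2 to 107), Ptn (44.7 against 3.61 to 6.62), Ifngr1 (566 against 363 to 375) and Fam25c (5.05 against 0). CTRL library 12 was low for Pgr (0), Csn1s1 (14.7 CPM against 33.1 to 44.3) and the epithelium sum (228 CPM against 334 to 359).

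Among C269, library 18 was high for Il5 (48.3 CPM against 9.4 to 12.5). Library 19 was high for Fam25c (82.5 CPM against 12 to 19.9), Klrd1 (45.1 against 15.7 to 20.02) and Ccl5 (332 against 147 to 180). Library 20 was low for Cd4 (116 CPM against 163 to 184) and high for Dcn, a fibroblast proteoglycan (1350 against 170 to 241), and for the fibroblast sum (9770 CPM). No cause was tested.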

How the results depend on the processing

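The count of genes past the threshold was 0 in the edgeR fit, 17 with DESeq2 and 83 with no filter on low counts, and ran from 0 to 10 when single libraries were left out, the 10 without library 15; it was 0 under voom, the robust fit, RLE normalization, scaling to the T cell core list, ribosomal RNA kept, all 30 libraries in the fit, and 2 alternatives added after the data were seen, leaving out libraries 19 and 20 and the epithelium covariate. Genes with an unadjusted p under 0.05 numbered 434 higher and 263 lower, against 194 and 187 without libraries 19 and 20 and 116 and 163 with the covariate. Scaling to the T cell core list moved the median of all genes to -0.11 and left 153 higher and 103 lower; no filter gave 1273 and 1265, and all 30 libraries in 1 fit 130 and 100. The cause was not tested. No paired analysis was possible because the library columns carry no replicate letters.

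Cd4 reversed to 0.0566 under core scaling, 0.0935 without libraries 19 and 20 and 0.35 with the covariate, and Cd274 to 0.0678 and 0.25 under the last 2. With the covariate Sdc1 reversed to -0.47 and Dcn to -0.52. Leaving out single libraries gave Cd4 -0.206 to 0.0901, Cd274 -0.163 to 0.0357 and Dcn -0.0702 to 1.71. The ratio of Gata3 to Foxp3 became 0.75 over the T cell core list (exact p = 0.0476). With single libraries left out, Gata3 ran from 0.36 to 0.56, past the threshold without libraries 14, 16 or 18, Areg from 0.50 to 0.77, not past it without 17 or 20, and Cxcr6 from 0.73 to 0.99, not past it without 12, 13, 16, 17 or 19. Ccr7 reversed to 0.27 with the covariate. The difference between the CD4 and CD8 effects ran from -2.17 to 0.49 for Cited1, from -0.12 to 0.57 for Slc12a2 and from -0.91 to 0.55 for Prlr.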
